A study of Rattus norvegicus with 96 samples.

Results

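The genes described here encode the protein machinery of oxidative phosphorylation in the inner mitochondrial membrane. They were chosen by name alone, as every probe set annotated to a single gene symbol that begins with Ndufa, Ndufb, Ndufc, Ndufs, Ndufv, Uqcr, Cox4, Cox5, Cox6, Cox7, Cox8 or Atp5. The rule found 91 probe sets of 82 genes, among 14217 genes measured by a probe set with 1 symbol. By symbol, 36 genes belong to complex I, 6 to complex I assembly (the Ndufaf genes), 7 to complex III, 17 to complex IV and 16 to the ATP synthase. Another 7 probe sets matched the rule but carried several symbols and were left out, among them the probe sets of Atp5mc1 and Cox7a2, which share sequence with copies.

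RNA came from the central nucleus of the amygdala, a forebrain region engaged in fear, stress and alcohol-related behaviour, and was measured on 96 Affymetrix arrays. Each array was titled for 1 rat, and the rats came from 10 lines selected for preferring alcohol or not, which form 5 pairs. The preferring lines were HAD1 (9 arrays), HAD2 (10), P (10), AA (10) and sP (8). Their non-preferring partners, in the same order, were LAD1 (10 arrays), LAD2 (10), NP (10), ANA (10) and sNP (9). The lines were selectively bred and carry no engineered allele; the sources used here give no sex, age or alcohol exposure. Values are log2 signals after RMA, which subtracts background, brings arrays to a common scale and reduces the probes of a set to 1 value. Every difference below is the preferring minus the non-preferring line of a pair, in log2 units, so that a difference of 1 is a doubling. A gene was called where limma, a linear model test fitted on all 31042 probe sets, gave a Benjamini-Hochberg adjusted p under 0.05.

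Electrons from NADH enter the respiratory chain at complex I (NADH dehydrogenase), pass through complex III (the cytochrome bc1 complex) to complex IV (cytochrome c oxidase), and are handed to oxygen. The protons pumped on the way drive the ATP synthase. Neurons draw most of their ATP from this route, and several complex IV subunits exist as a widely used form and as a form known from muscle, lung or testis. The subunits analysed here are nuclear-encoded, and nuclear respiratory factor 1 (NRF1), the ETS-family factor GABP and YY1 are known regulators of many of them.

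RefSeq promoters of the GRCr8 assembly, each running from 250 bases before to 50 bases after the gene start, were found for 74 of the 82 genes. They were searched on both strands for TGCGCANGC (NRF1), AANATGGCG (YY1) and CCGGAAG (ETS, the GABP core). The YY1 letters were in 18 of the 74 promoters (24.3%), against 3.33% of all 27457 promoters and 5.34% of the 11700 promoters of genes measured on the array. For CCGGAAG the count was 20 of 74 (27.0%), against 9.22% of all promoters and 15.1% of those of measured genes. For the NRF1 letters it was 13 of 74 (17.6%), against 4.22% and 7.22%. At least 1 of these motifs was in 41 member promoters (55.4%), against 15.03% of all and 24.4% of measured promoters. The median GC content was 55.8% in member promoters and 60.0% in those of measured genes. The places differed by motif: 14 of 18 YY1 matches lay after the gene start, 15 of 16 NRF1 matches and 22 of 26 ETS matches before it. The following stretches hold 120 bases before and 30 after the start, in the direction of the gene, with motif matches in capitals. The first 4 are examples picked from complex I, complex III, complex I assembly and complex IV. They do not stand for the arrangement in those groups. The last 2 belong to the genes that differed most between HAD2 and LAD2.
Ndufa6: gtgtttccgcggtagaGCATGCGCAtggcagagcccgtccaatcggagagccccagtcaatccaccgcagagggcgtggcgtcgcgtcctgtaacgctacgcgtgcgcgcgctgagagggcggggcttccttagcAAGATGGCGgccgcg
Uqcrc1: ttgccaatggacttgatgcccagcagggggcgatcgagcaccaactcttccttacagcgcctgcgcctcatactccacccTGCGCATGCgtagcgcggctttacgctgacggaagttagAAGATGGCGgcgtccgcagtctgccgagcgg
Ndufaf8: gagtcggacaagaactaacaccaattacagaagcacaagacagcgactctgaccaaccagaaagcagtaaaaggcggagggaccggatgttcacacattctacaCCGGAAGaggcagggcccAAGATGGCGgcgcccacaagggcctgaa
Cox8a: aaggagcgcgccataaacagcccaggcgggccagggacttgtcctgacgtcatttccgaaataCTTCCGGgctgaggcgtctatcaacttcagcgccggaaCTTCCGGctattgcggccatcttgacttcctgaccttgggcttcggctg
Ndufaf4: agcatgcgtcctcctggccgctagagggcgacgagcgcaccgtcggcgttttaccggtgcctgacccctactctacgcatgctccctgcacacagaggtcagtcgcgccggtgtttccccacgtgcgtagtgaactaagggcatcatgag
Cox6b2: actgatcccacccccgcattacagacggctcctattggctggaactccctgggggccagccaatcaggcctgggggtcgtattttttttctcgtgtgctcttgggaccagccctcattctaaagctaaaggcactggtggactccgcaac

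These lie at chr7:115750288-115750437 on the minus strand (Ndufa6), chr8:118468103-118468252 on the plus strand (Uqcrc1), chr10:105879788-105879937 on the plus strand (Ndufaf8), chr1:213833594-213833743 on the minus strand (Cox8a), chr5:43401675-43401824 on the plus strand (Ndufaf4) and chr1:78122751-78122900 on the plus strand (Cox6b2). Ndufa6 and Uqcrc1 pair an NRF1 match before the start with a YY1 match near it, Ndufaf8 pairs an ETS match with a YY1 match, and Cox8a holds a pair of ETS matches. The windows of Ndufaf4 and Cox6b2 hold none of the letters searched, which says nothing about binding of these factors. Among the groups, 19 of 34 complex I, 3 of 6 complex I assembly, 5 of 6 complex III, 5 of 13 complex IV and 9 of 15 ATP synthase promoters held at least 1 motif.

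Most respiratory chain probe sets were among the brightest on the array. The median member gene had a level of 12.50 against 9.06 for all genes, and 63 of the 82 genes lay in the top 10% of probe sets. Levels of different probe sets also carry the binding of their probes, so they describe the signal and do not rank transcript amounts. The ATP synthase genes had a median of 13.25 and ran from Atp5me at 11.90 to Atp5mc3, a subunit of the membrane ring, at 14.27. The catalytic beta subunit Atp5f1b was at 14.10, the alpha subunit Atp5f1a at 13.48, the central stalk Atp5f1c at 13.77 and the inhibitor Atp5if1 at 12.30. Complex III genes had a median of 12.93, from the iron-sulphur protein Uqcrfs1 at 12.22 to the hinge protein Uqcrh at 13.35, with the core protein Uqcrc1 at 12.70. Complex I genes had a median of 12.27, from Ndufa4l2 at 7.65 to Ndufa1 at 13.76. Its electron-carrying subunits Ndufs1, Ndufv1 and Ndufs7 were at 12.25, 12.20 and 12.29, and the acyl carrier Ndufab1 at 13.06. Complex I assembly factors were dimmer, with a median of 10.17 and a range from Ndufaf1 at 6.96 to Ndufaf3 at 10.78.

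Complex IV had the widest range, from 5.17 for Cox7b2 to 14.16 for Cox6c. The subunits in general use were bright, with Cox4i1 at 13.43, Cox5b at 13.35, Cox6a1 at 13.49, Cox6b1 at 13.24 and Cox8a at 13.87. The forms known from other tissues were dim: the lung form Cox4i2 was at 5.82, the heart and muscle forms Cox6a2, Cox7a1 and Cox8b at 6.85, 7.85 and 5.97, and the testis form Cox6b2 at 6.77. The median of all probe sets was 7.89. Cox5a, another complex IV subunit, had a level of 8.85 on its only probe set with 1 symbol. Ndufa4, counted by its symbol with complex I although its product is a subunit of complex IV, was at 13.46. The tissue label was checked on marker lists: central amygdala neuron markers had a median level of 10.84 (14 of 15 measured), pan-neuronal markers 12.57, astrocyte markers 12.66, striatal markers 10.91 (8 of 9 measured), choroid plexus markers 6.16, muscle markers 5.29 and markers of cortical and basolateral excitatory neurons 6.97. The median of striatal markers, of a neighbouring region, was thus close to that of the central amygdala list. Since levels of different probe sets do not rank transcript amounts, these medians cannot tell the regions apart. In such tissue samples, fewer cells of a type and less RNA per cell cannot be told apart.

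The arrays split into 2 blocks of lines. In the HAD and LAD lines 73 of the 82 genes had a lower mean than in the other 6 lines, with a median gap of -0.93, while the median gap over all genes was 0.24. A gap below -1 was seen in 36 of the 82 genes (43.9%), against 6.63% of all genes. The median gap was -0.92 for complex I, -0.97 for complex III, -0.92 for complex IV, -1.09 for the ATP synthase and -0.15 for the assembly factors. Ndufb8, an accessory subunit of complex I, had a mean of 6.73 in the HAD and LAD lines and 11.42 in the others, and its highest HAD or LAD array (6.97) lay far below the lowest other array (11.09). Atp5mg, a membrane subunit of the ATP synthase, was at 9.14 against 13.80, and Cox7b at 11.04 against 13.97. The few genes with a gap above 0 included Ndufaf4, with a gap of 0.86, and Cox7a2l, a factor of supercomplex assembly, with a gap of 0.51, while Atp5f1b (-0.02) and Ndufc2 (-0.05) were nearly level.

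**Figure D1:**
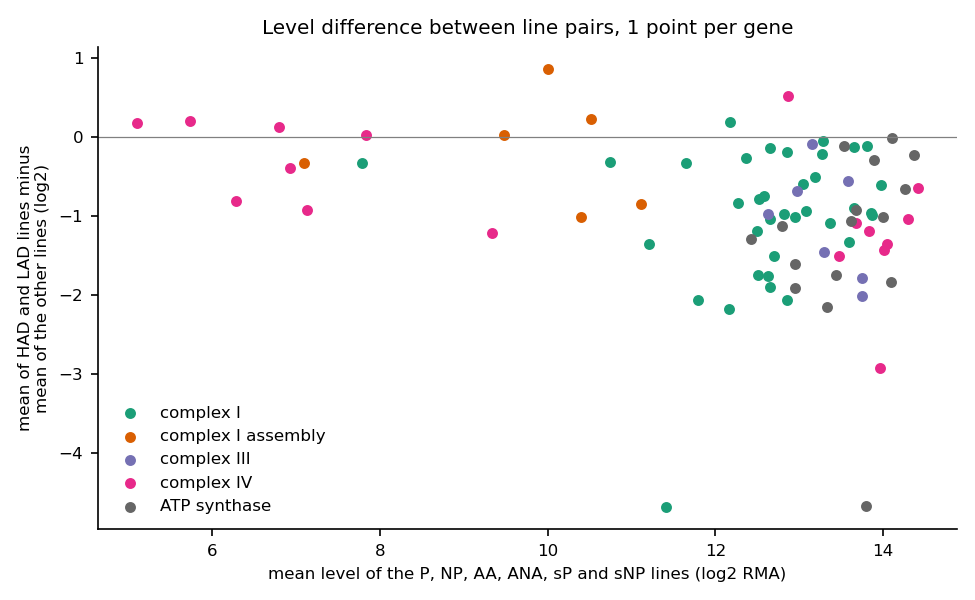
Each point is 1 of the 82 genes; the x axis is its mean level in the P, NP, AA, ANA, sP and sNP lines (log2 RMA) and the y axis the mean of the HAD and LAD lines minus that mean (log2), coloured by complex. Most points lie below 0 (73 of 82), with Ndufb8 at -4.69 and Atp5mg at -4.67 the lowest and Ndufaf4 at 0.86 the highest.

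The gap was calculated after the levels had been seen and has no test, since line descent and any difference in array processing between the pairs cannot be told apart. It came with another difference: the log2 ratio of 3' to 5' GAPDH control probe sets, a sign of RNA integrity and amplification, had line means from 3.33 to 4.09 in the HAD and LAD lines and from 0.197 to 0.432 in the others. The beta-actin ratio split in the same way (4.06 to 4.25 against 1.99 to 2.87), and the hexokinase ratio did not, with 0.680 in HAD2 and 0.821 in LAD2 against 0.393 to 0.818 in the others and 1.75 to 1.83 in LAD1 and HAD1. Some marker scores also split along these blocks. Line means were -0.98 to -0.62 against 0.28 to 0.87 for striatal, -0.97 to -0.13 against 0.27 to 0.51 for central amygdala neuron and -0.30 to -0.21 against 0.10 to 0.24 for pan-neuronal markers. Other lists overlapped, such as astrocyte (-0.05 to 0.13 against -0.08 to 0.03) and oligodendrocyte markers (-0.20 to 0.22 against -0.24 to 0.13). Cortical and basolateral excitatory markers overlapped too (-0.38 to -0.12 against -0.30 to 0.41). The cytosolic ribosomal protein genes had a median gap of -0.81. The part of these ratios and markers in the gap was not tested. All comparisons that follow were made within a line pair.

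Groups were taken as labelled, but 15 arrays resembled the other line of their pair over their most separating genes: 2 of 19 in HAD1 and LAD1, 0 of 20 in HAD2 and LAD2, 4 of 20 in the P pair, 5 of 20 in the AA pair and 4 of 17 in the sP pair. The source name of LAD1 36 says HAD1 while its title says LAD1, and sP 2 and sNP 2 were nearly identical, with an SD of their difference of 0.0901 against 0.165 for the next closest arrays. P 5 had a high signal of choroid plexus markers. Counts were repeated without these arrays.

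Within a line, arrays differed in a shift that the complexes shared. For each array a score was taken per complex, the mean over its genes of the level minus that gene's mean over all 96 arrays. With line means subtracted, the scores of complex I and the ATP synthase had a Pearson correlation of 0.946 (Spearman 0.941) over the 96 arrays, complex I and complex III 0.940, and complex I and its assembly factors 0.862. Complex IV, whose score includes the dim forms known from other tissues, followed less closely, at 0.708 with complex I. These scores share arrays and normalization, so the correlations are given as descriptions. Over pairs of genes the median correlation was 0.549 within complex I, 0.505 within the ATP synthase, 0.489 within complex III, 0.334 among assembly factors and 0.150 within complex IV, against 0.0155 over pairs of all genes. The genes that followed the mean of the other members most closely were Atp5mf (0.885), Atp5po, part of the stator stalk (0.884), Ndufab1 (0.880) and Uqcrh (0.879). Of the bright complex IV genes, Cox6a1 and Cox5b followed closely too (0.848 each), while Cox8a was at 0.508 and Cox6b1 at 0.430. The complex IV values were not calculated without its dim forms.

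Genes that did not follow included several dim forms known from other tissues, but not the muscle form Cox7a1, whose correlation of 0.460 was near the 0.430 of the bright Cox6b1. Cox8b had a correlation of -0.04 with the mean of the other members, the pseudogene copy Cox6c-ps1 0.001, Cox6b2 0.03, Cox7b2 0.07, Ndufa4l2 0.09, Cox4i2 0.17 and Cox6a2 0.18. Ndufv1, the subunit that binds NADH and flavin, was an exception: it was bright, at 12.20, and had a correlation of -0.01. Promoter motifs went with small differences: the median correlation with the other members was 0.752 for the 41 genes with a motif and 0.646 for the 33 without. These groups differ in make-up, since 5 of 13 complex IV promoters held a motif against 19 of 34 of complex I. The part of this in the difference was not tested.

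The shared shift was largest in HAD1 and LAD1. There HAD1 29 and LAD1 39 were the lowest arrays of their lines in every one of the 5 groups of genes, with complex I scores of -1.15 and -0.89 against line medians of -0.77 and -0.65. In this pair the score over all members had a correlation of 0.971 with the score of cytosolic ribosomal protein genes and of 0.603 with the GAPDH ratio. In HAD2 and LAD2 these were 0.904 and 0.451, and in AA and ANA 0.689 and 0.072. In P and NP the correlations were 0.029 and -0.13, and in sP and sNP -0.24 and -0.13. So the members moved with the ribosomal protein genes in some pairs and not in others, a difference that was not tested. Over all 96 arrays the correlation was 0.805 with ribosomal protein genes (0.742 without LAD1 39 and HAD1 29), 0.520 with astrocyte markers, 0.399 with pan-neuronal markers and -0.21 with central amygdala neuron markers.

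**Figure D2:**
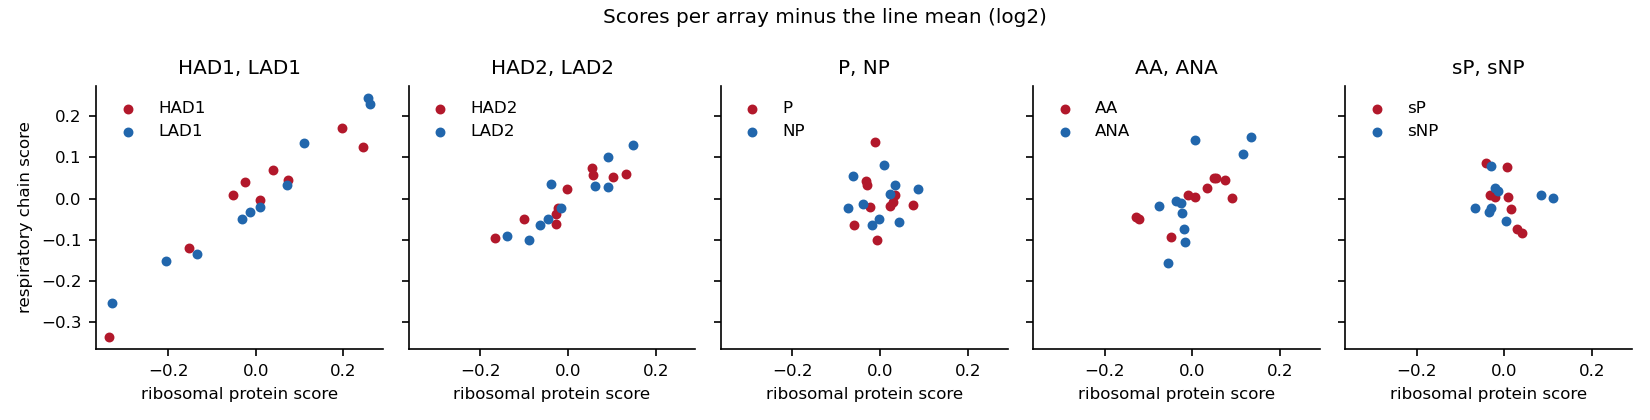
Each point is 1 array; the x axis is the score of cytosolic ribosomal protein genes and the y axis the score over all 82 respiratory chain genes, both log2 after subtracting the line mean, with 1 panel per line pair (red preferring, blue non-preferring line). The points follow a line in HAD1 and LAD1 (r = 0.971) and in HAD2 and LAD2 (r = 0.904) and form a cloud in P and NP (r = 0.029).

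In HAD1 rats the respiratory chain genes tended to lower levels than in LAD1 rats, and none passed the test. The complex I score ran from -1.15 through a median of -0.77 to -0.58 in HAD1 and from -0.89 through -0.65 to -0.35 in LAD1. The ranges overlapped widely, and 7 of 9 HAD1 arrays lay below the LAD1 mean. The differences of mean scores were -0.15 for complex I, -0.16 for complex III, -0.10 for complex IV, -0.13 for the ATP synthase and -0.08 for the assembly factors. These sit beside a difference of -0.14 for ribosomal protein genes, -0.02 for all genes and -0.25 for the GAPDH log2 ratio, with -0.11 for the beta-actin and 0.08 for the hexokinase ratio. Microglia markers had a larger difference than any complex, -0.27, with 9 of 9 HAD1 arrays below the LAD1 mean and 2 of 14 probe sets called lower by limma, and central amygdala neuron markers were at 0.14. The part of these in the members' difference was not tested. With the median over genes in place of the mean, the difference was -0.06 for complex III and -0.05 for complex IV.

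Of the 91 probe sets, 81 had a negative difference, with a median of -0.13 against -0.003 over all probe sets. By limma with Benjamini-Hochberg adjustment 0 of 91 were called, where 0.963% of all probe sets were. At an unadjusted p under 0.05, 21 were lower and 0 higher, 10 of 39 in complex I, 1 of 7 in assembly, 2 of 8 in complex III, 3 of 17 in complex IV and 5 of 20 in the ATP synthase; the share of all probe sets lower at that p was 5.97%. Arrays of 1 line share these shifts, so the members are not independent of each other. With all 10 groups in 1 fit, which estimates the spread over all 96 arrays, 14 members were called lower in HAD1, where 1.45% of all probe sets were. Without HAD1 29 and LAD1 39 the median difference was -0.11 and 80 of 91 were negative.

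The smallest p belonged to Ndufa4, with levels of 12.26, 12.78 and 12.95 (lowest, median, highest) in HAD1 and 12.68, 12.99 and 13.31 in LAD1. All 9 HAD1 arrays lay below the LAD1 mean, though the ranges overlapped, and the difference was -0.32 with an SE of 0.0981 (limma adjusted p = 0.146). Uqcr11, a small subunit of complex III, ran from 11.17 through 11.63 to 11.79 in HAD1 and from 11.54 through 11.87 to 12.16 in LAD1. Again no HAD1 array lay above the LAD1 mean, and the difference was -0.29 with an SE of 0.0904 (limma adjusted p = 0.158). The members with the smallest p in the other direction were Cox6b2 (0.19) and Ndufaf4 (0.21), both with limma adjusted p of about 0.46. Other subunits had differences of many sizes: Ndufs7 -0.28, Cox4i1 -0.26, Ndufab1 -0.18, Cox6a1 -0.18, Ndufs1 -0.14, Uqcrc1 -0.08, Atp5f1a -0.07 and Atp5f1b -0.01. In contrast, Ndufv1 was at 0.07.

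**Figure D3:**
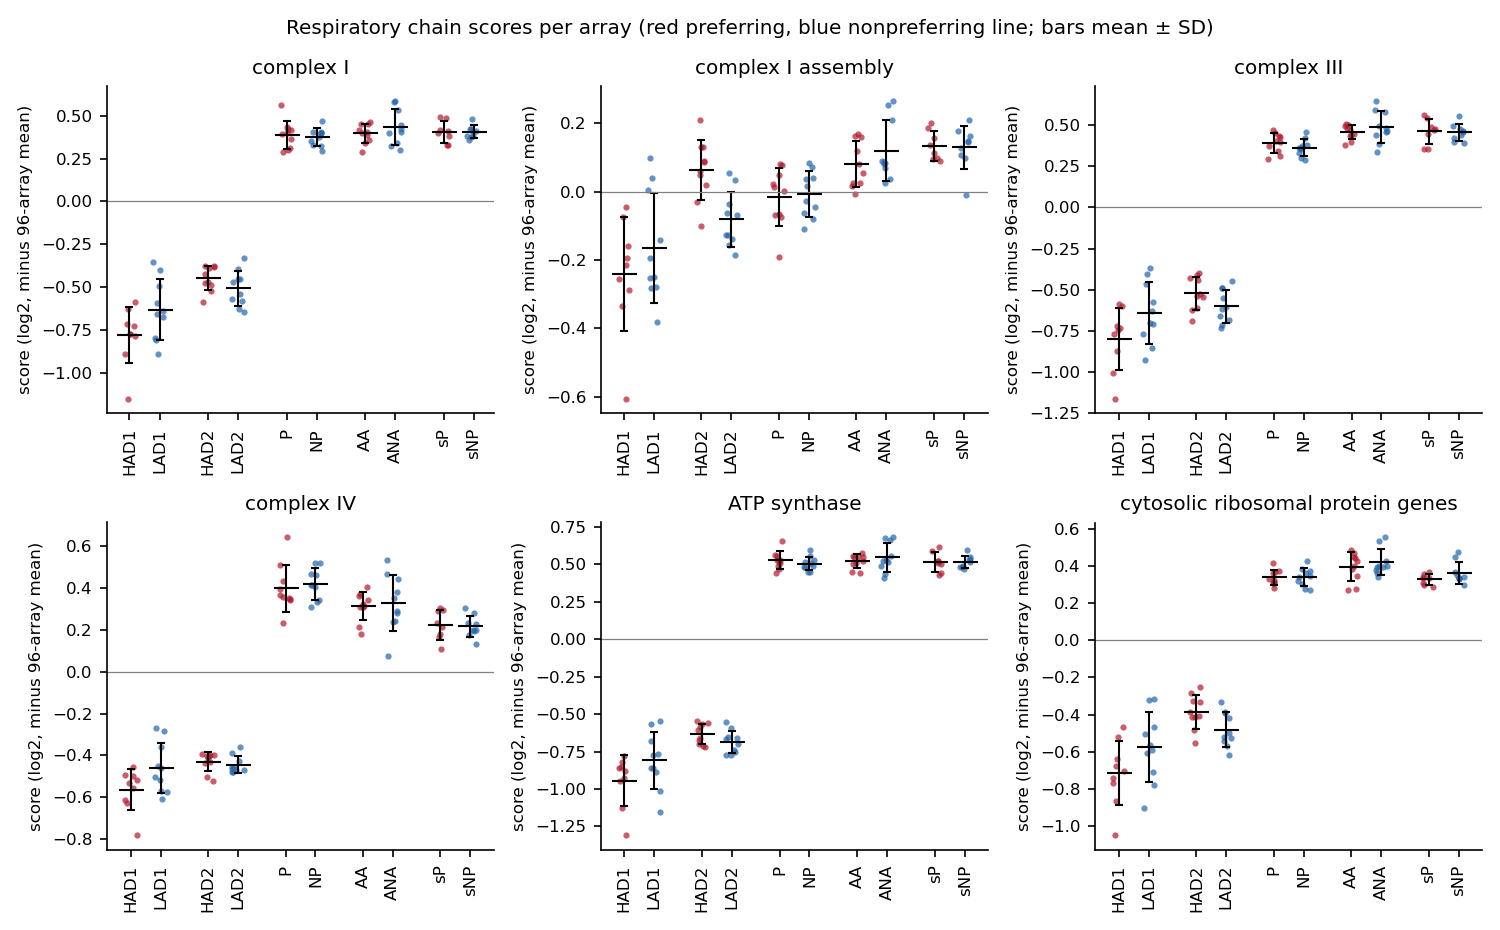
Each point is the score of 1 array, the mean over the genes of a group of the level minus that gene's 96-array mean (log2), by line, with red for preferring and blue for non-preferring lines and bars for the mean ± SD; the lower right panel shows cytosolic ribosomal protein genes. The HAD and LAD lines lie below the others in complex I (line means -0.78 to -0.45 against 0.37 to 0.43), and within pairs the lines overlap.

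In HAD2 rats 2 assembly factors of complex I rose and a minor form of a complex IV subunit fell against LAD2 rats. Called were 3 of 91 probe sets, a share below the 4.09% of all probe sets called in this pair. Ndufaf4, a gene on chromosome 5 for an assembly factor needed to build complex I, had levels of 11.10, 11.30 and 11.47 (lowest, median, highest) in HAD2 and 10.67, 10.84 and 10.98 in LAD2. Every HAD2 array lay above every LAD2 array. The means were 11.29 ± 0.11 and 10.83 ± 0.10 (SD, n = 10 each), a 1.379-fold difference of 0.46 with an SE of 0.0492 (limma adjusted p = 8.34e-07).

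Cox6b2, on chromosome 1, encodes a form of the complex IV subunit 6b known from testis and ran from 5.66 through 5.85 to 6.10 in HAD2 and from 6.14 through 6.54 to 6.82 in LAD2. The ranges did not overlap. It was 1.58-fold lower in HAD2, a difference of -0.66 with an SE of 0.0762 (limma adjusted p = 3.06e-06), at levels below the median of all probe sets; its counterpart Cox6b1 was not called. Ndufaf7, on chromosome 6, encodes a methyltransferase that modifies a complex I subunit during assembly, and its brighter probe set ran from 9.38 through 9.55 to 9.84 in HAD2 and from 9.18 through 9.28 to 9.44 in LAD2. The ranges overlapped slightly, and all 10 HAD2 arrays lay above the LAD2 mean. It was 1.19-fold higher, by 0.25 with an SE of 0.0611 (limma adjusted p = 0.0164), and its other probe set had a difference of 0.21 that did not pass (limma adjusted p = 0.0737). These are signals of single probe sets, and a variant between lines beneath the probes cannot be told apart from a difference in RNA.

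**Figure D4:**
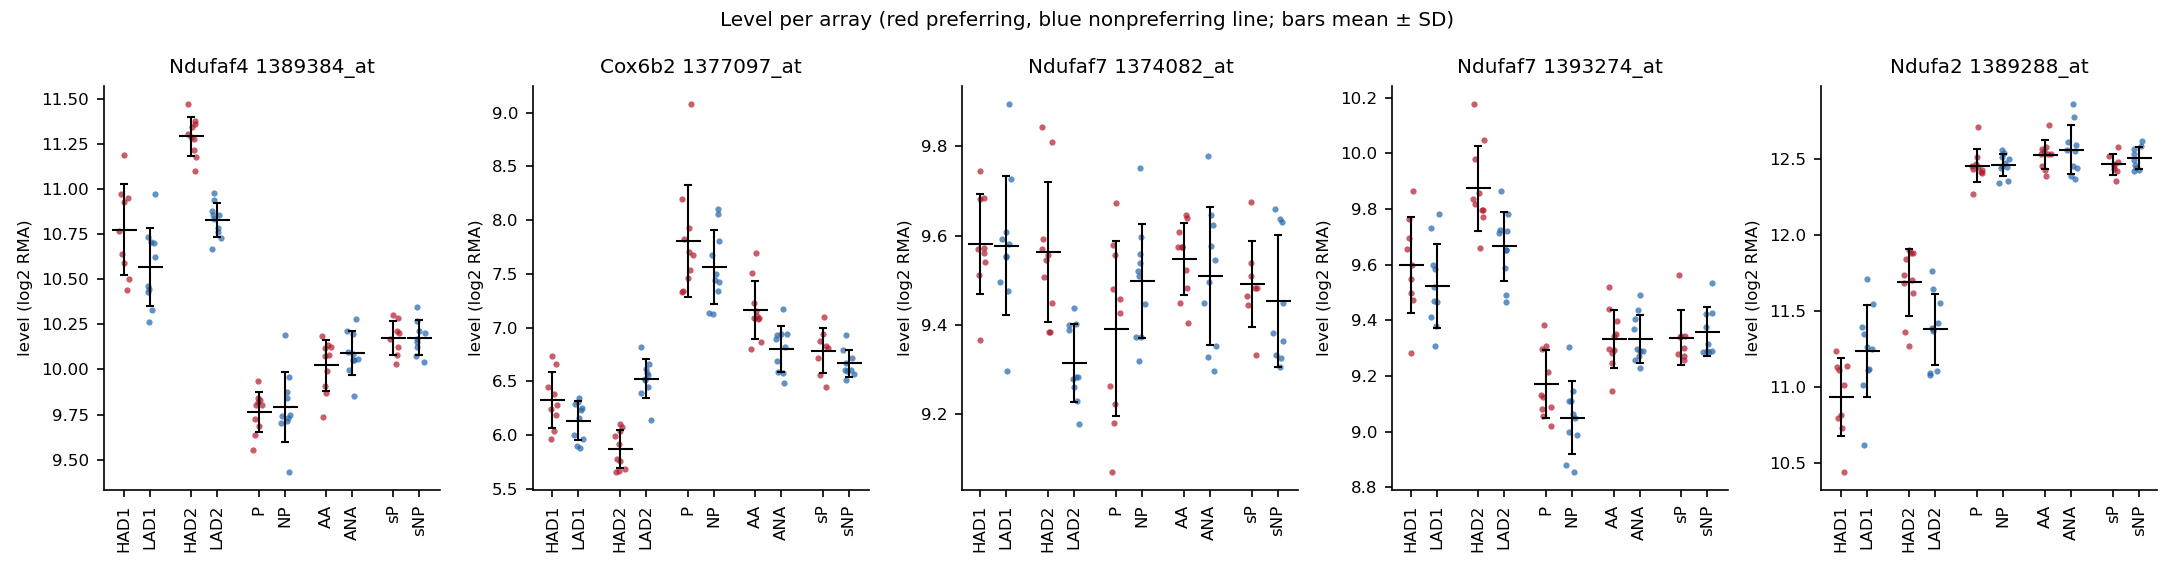
Level of each array (log2 RMA) for Ndufaf4, Cox6b2, both probe sets of Ndufaf7 and Ndufa2, by line, with red for preferring and blue for non-preferring lines and bars for the mean ± SD; the axes do not start at 0. Ndufaf4 and Cox6b2 separate HAD2 from LAD2 without overlap in opposite directions, and Ndufa2 is lower in HAD1 than in LAD1 (-0.30) and higher in HAD2 than in LAD2 (0.31), neither past the test.

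The 3 called members stood on a slight tendency to higher levels in HAD2. Of the 91 probe sets, 70 had a positive difference, with a median of 0.04 against -0.01 over all probe sets, and 15 were higher and 2 lower at an unadjusted p under 0.05, where 7.73% of all probe sets were higher. Positive differences were seen in 32 of 39 probe sets of complex I, 7 of 7 of assembly, 7 of 8 of complex III, 11 of 17 of complex IV and 13 of 20 of the ATP synthase. Of the scores, that of the assembly factors differed most: it ran from -0.10 through 0.07 to 0.21 in HAD2 and from -0.19 through -0.10 to 0.05 in LAD2. All but 1 HAD2 array lay above the LAD2 mean, and the difference of 0.15 was set against 0.06 for complex I, 0.08 for complex III, 0.01 for complex IV and 0.05 for the ATP synthase. The assembly difference was carried by the called Ndufaf4 and Ndufaf7 (0.46 and 0.25), since Ndufaf1 was at 0.11 and Ndufaf3, Ndufaf5 and Ndufaf8 were between 0.01 and 0.02. The complex IV score includes the called Cox6b2 at -0.66. With the median over genes in place of the mean, its difference was -0.0459. In this pair ribosomal protein genes differed by 0.10, the GAPDH ratio by 0.10, the beta-actin ratio by 0.04 and the hexokinase ratio by -0.14. Choroid plexus markers differed by -0.40, with 10 of 10 HAD2 arrays below the LAD2 mean and 0 of 7 probe sets called, and cortical and basolateral excitatory markers by 0.23, with 0 of 10 below and 3 of 10 probe sets called higher. The part of these in the members' differences, Cox6b2 included, was not tested.

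Some members of the other complexes came near the threshold. Cox6c had a difference of 0.10 (SE 0.0303, limma adjusted p = 0.0616) and Ndufa2, a small matrix subunit of complex I, one of 0.31 (SE 0.0941, limma adjusted p = 0.0690). Ndufa12 had a difference of -0.14 (SE 0.0441, limma adjusted p = 0.0823). Several other subunits differed little: Ndufs1 0.02, Ndufv1 0.07, Uqcrc1 0.04, Cox8a -0.03, Atp5f1a 0.02 and Atp5f1b -0.04. The probe sets of Ndufa7 disagreed in both of these pairs: the brighter one had differences of -0.19 for HAD1 and 0.14 for HAD2, the other 0.25 and -0.25, with 0 of these called.

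In the other 3 pairs no member was called. For P and NP this was 0 of 91, where 0% of all probe sets were called; at an unadjusted p under 0.05, 2 members were higher and 2 lower. The largest of these was Cox5a at -0.25 (limma adjusted p = 0.801), followed by Uqcrfs1 at 0.20, with levels of 12.35, 12.67 and 12.94 in P and 12.17, 12.47 and 12.81 in NP, and by Ndufaf1 at 0.17 and Cox7b2 at -0.16. The ranges of Uqcrfs1 overlapped, 9 of 10 P arrays lay above the NP mean, and the difference did not pass (SE 0.0717, limma adjusted p = 0.737). The scores differed by 0.01 for complex I, 0.03 for complex III, -0.02 for complex IV and 0.02 for the ATP synthase.

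For AA and ANA it was again 0 of 91, with 0% of all probe sets called and 1 member higher and 1 lower at an unadjusted p under 0.05. The higher one was Cox6b2, at 6.80, 7.10 and 7.70 in AA and 6.48, 6.86 and 7.18 in ANA, a difference of 0.36 in overlapping ranges (SE 0.107, limma adjusted p = 0.688). The lower one was Cox8b, at -0.26. In this pair 17 of 91 members had a positive difference, with a median of -0.02 against 0.01 over all probe sets, and complex scores differed by -0.02 to -0.04. For sP and sNP, 0 of 91 members were called, 0% of all probe sets were called, and 1 member was higher and 0 lower at an unadjusted p under 0.05. It was Ndufa12, at 12.81, 13.14 and 13.32 in sP and 12.85, 12.90 and 13.24 in sNP, a difference of 0.14 (SE 0.0667, limma adjusted p = 0.9998). All 5 scores differed by less than 0.01 in this pair.

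**Figure D5:**
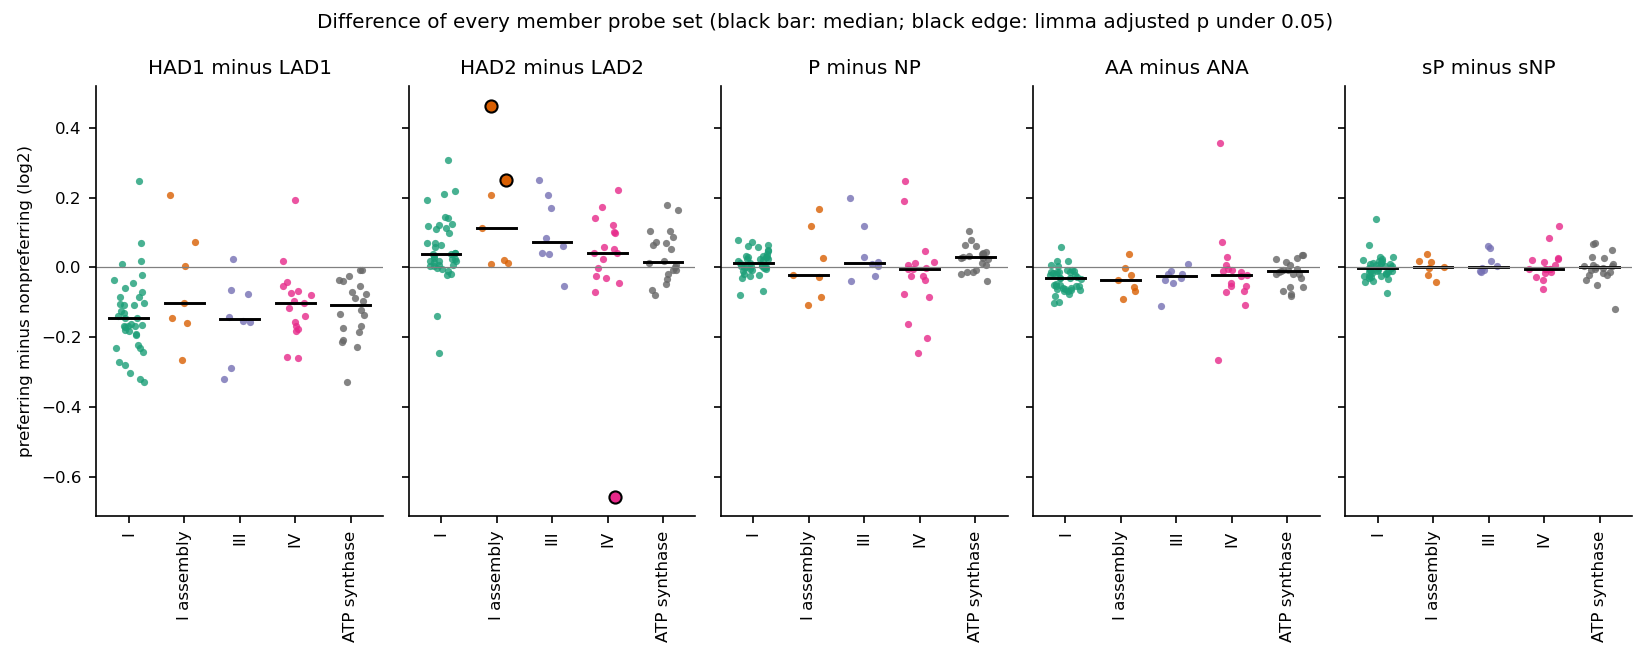
Each point is 1 of the 91 probe sets; the y axis is the preferring minus non-preferring difference (log2), with 1 panel per line pair and 1 column per complex. Black bars are medians and black edges mark the 3 probe sets with a limma adjusted p under 0.05, all in HAD2 minus LAD2; most points lie below 0 for HAD1 (81 of 91) and above 0 for HAD2 (70 of 91).

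Averaged over the 5 pairs, 1 member was called, Ndufaf4, where 0.986% of all probe sets were. Its mean difference was 0.11 with an SE of 0.0315 (limma adjusted p = 0.0463), and it was made by 2 pairs: 0.46 in HAD2 and 0.21 in HAD1 against -0.03 in P, -0.07 in AA and -0.001 in sP. The call was lost without LAD1 36 or P 5, with 1 probe set per gene, with arrays centred on their medians, and with the 5 line pairs as replicates. At an unadjusted p under 0.05, 2 members were higher and 5 lower in this mean. Next to it by p were Ndufaf7 on its dimmer probe set at 0.08 (limma adjusted p = 0.221), Ndufaf8, another assembly factor, at -0.09 (0.231), Cox7b2 at -0.07 (0.289) and Ndufv2 at -0.07 (0.406).

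Differences varied among the line pairs for 11 of 91 members by limma's F test with Benjamini-Hochberg adjustment, where 4.54% of all probe sets did. This test takes its spread from all 10 groups. The complex I scores spread more in HAD1 and LAD1, with an SD of 0.165 and 0.176, than in the other lines, with 0.037 to 0.103. Cox6b2 (adjusted p = 2.27e-05) was lower in HAD2 and had differences of 0.12 to 0.36 in the other 4 pairs. Ndufaf4 (limma adjusted p = 6.81e-05) was high in HAD2. The other 9 shared one pattern, a negative difference for HAD1, a positive one for HAD2 and values between -0.07 and 0.07 for P, AA and sP. None of these 9 was called in the separate fits of HAD1 and LAD1 or of HAD2 and LAD2. Ndufa2 showed the widest such contrast, at -0.30 and 0.31 (limma adjusted p = 0.0024); its levels were 10.44, 11.01 and 11.24 in HAD1, 10.62, 11.26 and 11.71 in LAD1, 11.27, 11.72 and 11.90 in HAD2 and 11.08, 11.38 and 11.76 in LAD2. The ranges overlapped within both pairs. The rest were the complex I subunit Ndufa6 (-0.33 and 0.21), the complex III subunits Uqcr10 (-0.32 and 0.21) and Uqcr11 (-0.29 and 0.08), Ndufa4 (-0.32 and 0.06), the complex IV subunit Cox7c (-0.26 and 0.14), and the ATP synthase subunits Atp5f1e (-0.33 and 0.18), Atp5mf (-0.23 and 0.16) and Atp5mg (-0.21 and 0.10). The score of ribosomal protein genes and the GAPDH and beta-actin ratios had differences of the same signs in both pairs, the hexokinase ratio of the opposite signs, and their part in this contrast was not tested.

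Other genes of mitochondrial energy metabolism gave few calls, to be read against the 4.09% of all probe sets called in HAD2 against LAD2, 0.986% in the mean over pairs and 4.54% for variation. In HAD2 against LAD2, 0 of 5 probe sets of complex II, 0 of 4 of electron carriers, 0 of 18 of pyruvate dehydrogenase and the citric acid cycle and 0 of 14 of carriers and pores were called. At an unadjusted p under 0.05, 0, 0, 1 and 1 of these were higher and 1, 0, 0 and 1 lower. A further list held assembly factors of complex III, complex IV and the ATP synthase, and some of complex I outside the Ndufaf genes, such as Tmem126b. Of its 42 probe sets, 2 were lower and 0 higher. Cox18, which inserts a complex IV subunit into the membrane, fell by 0.28 (limma adjusted p = 0.0011). Ttc19, which acts on complex III, fell by 0.21 (limma adjusted p = 0.0426). Among regulators of mitochondrial biogenesis, 3 of 26 probe sets rose and 0 fell: the coactivator Ppargc1b by 0.44 (limma adjusted p = 0.0393), Tfb1m, which methylates mitochondrial ribosomal RNA, by 0.23 (limma adjusted p = 0.0346), and a dimmer probe set of Nrf1 by 0.46 (limma adjusted p = 0.00227). Of the import and folding genes, 1 of 20 probe sets was lower and 0 higher, a dimmer probe set of the chaperone Hspa9 at -1.99 (limma adjusted p = 3.58e-13). The brightest probe sets of Nrf1 and Hspa9 were not called. No probe set of these lists was called in the other 4 pairs. In the mean over pairs, the Nrf1 probe set rose by 0.16 (limma adjusted p = 0.0315) and the import motor protein Timm44 fell by 0.11 (limma adjusted p = 0.00445). By the F test differences varied among pairs for 1 of 4 probe sets of electron carriers (Etfb), 4 of 42 of assembly factors (Cox18, Pet100 and both called probe sets of Tmem126b), 2 of 26 of biogenesis regulators (Tfb1m and Nrf1), 2 of 20 of import and folding genes (Hspa9 and Phb2), and 0 of 5 of complex II, 0 of 18 of the citric acid cycle list and 0 of 14 of carriers and pores. At an unadjusted p under 0.05 in limma, 0, 1 and 0 of the last 3 lists varied. The calls of Nrf1, Hspa9 and Phb2 for variation were on dimmer probe sets only.

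Among the dim complex IV forms, Cox8b and Cox6b2 had a single array far above the rest of its line. Cox8b was at 12.68 in P 5, while the other 95 arrays lay between 5.09 and 8.11 with a median of 5.64. Cox6b2 was highest in P 5 too, at 9.08 against at most 8.20 elsewhere. Markers of the choroid plexus, the epithelium that makes cerebrospinal fluid, were high in the same array: Ttr was at 15.05 (other arrays 5.72 to 12.25), Folr1 at 12.58 (4.89 to 6.43), Kl at 9.76 (4.55 to 5.50) and Aqp1 at 9.53 (6.19 to 8.09), while Otx2 was at 6.23 within the range of the others (5.70 to 6.51). The mean score of these 5 markers was 4.33 in P 5 and between -0.61 and 1.02 elsewhere. Over the 96 arrays, line means subtracted, Cox8b had a Pearson correlation of 0.857 with this score (permutation p = 0.00285, adjusted 0.0271 over 70 relations; Spearman 0.361, permutation p = 0.00499, adjusted 0.0349), and 0.435 without the 2 arrays farthest from the median. Much of the size of that relation therefore rests on those arrays. The part of choroid plexus cells in the Cox8b value was not tested.

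Cox6a2, the muscle form of subunit 6a, had the closest inverse relation to central amygdala neuron markers. The Pearson correlation was -0.46 over 96 arrays (permutation p = 5e-05, adjusted 0.0035 over 70 relations) and Spearman's was -0.49 (permutation p = 1e-05, the smallest that 100000 resamples can give, adjusted 0.0007). Without the 2 farthest arrays it was -0.43. Within pairs it was -0.73 in HAD1 and LAD1, -0.03 in HAD2 and LAD2, -0.47 in P and NP, 0.005 in AA and ANA and -0.78 in sP and sNP, so it was not seen in 2 of the 5 pairs. Cox6a2 was also related, in the other direction, to astrocyte (0.374, permutation p adjusted 0.0042), oligodendrocyte (0.337, adjusted 0.0328), vascular (0.314, adjusted 0.0271) and microglia markers (0.291, adjusted 0.0196). The muscle form Cox7a1 shared the sign for central amygdala neuron markers (-0.32, permutation p adjusted 0.0271). It did so too for astrocyte (0.306, adjusted 0.0279), oligodendrocyte (0.368, adjusted 0.0196) and microglia markers (0.288, adjusted 0.0497). By Pearson, Cox7a1 was also related to pan-neuronal (0.319, adjusted 0.0328) and muscle markers (-0.275, adjusted 0.0328). By Spearman neither passed (permutation p adjusted 0.0679 and 0.0519). In HAD2 and LAD2 its correlation had the opposite sign for central amygdala neuron (0.24), astrocyte (-0.26), oligodendrocyte (-0.14), microglia (-0.41) and muscle markers (0.27). For pan-neuronal markers it kept its sign there (0.12). Ndufa4l2 went the other way with central amygdala neuron markers (0.368, permutation p adjusted 0.0196). Its Spearman correlation of 0.269 did not pass (permutation p adjusted 0.0668). By Pearson alone, Cox6b2 passed with striatal (-0.333, adjusted 0.0328), and Cox7b2 with muscle (0.296, adjusted 0.0328) and vascular markers (-0.304, adjusted 0.0446). By Spearman alone, Cox6b2 passed with cortical and basolateral excitatory (0.384, adjusted 0.00747) and Cox7a1 with vascular markers (0.313, adjusted 0.0276).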

How the data were processed

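RNA of the rat central amygdala was hybridised to 96 Affymetrix arrays after 2-cycle labelling, per the labels. The authors deposited log2 values made with RMA, per the submitters' processing notes; the sources used here do not give its version, the genome build or whether all arrays were normalized as 1 set. Groups and replicate numbers came from titles. Of the probe sets, 57 controls were left out and 31042 were tested; 20826 carried 1 symbol, 436 several and 9780 none. The 7 probe sets with several symbols that matched the rule were left out. There were 0 value columns of no sample. A gene was represented by its brightest probe set in scores.

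Tests used limma 3.58.1 in R 4.3.3 with an intensity trend, two-sided, with Benjamini-Hochberg adjustment over all 31042 probe sets. Each pair was fitted on its own arrays; the mean of the 5 differences and the F test for variation used all 10 groups. The fits were tested on simulated data. P-values measure the spread between rats of a line, which share descent. The precision is limited by how many arrays each line has. Detection calls were not used. Scores and their correlations have no p; isoform correlations used 100000 permutations of the arrays.

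Names and promoters came from RefSeq tables of GRCr8, matched by Entrez identifier; all 82 genes matched and 74 had a promoter. Named were all called members, the 2 smallest p in each direction per pair and the 5 smallest p for the mean and for variation. The brightest and dimmest gene of each complex and a set of subunits and isoforms were named too. Genes named for their gap, their correlation or a p near the threshold were picked once their values were known. The members and lists were chosen with earlier results of these data known. Alternatives changed the normalization, filter, weights, fit, threshold and arrays used; those without HAD1 29 and LAD1 39, and without P 5, were chosen after seeing the data. An array was placed on the other line's side by 100 probe sets that best separate the lines in the remaining arrays; leaving such arrays out raises differences by construction.

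Replicate numbers were shared by the lines of P and NP and of sP and sNP. Of 10 same-numbered P and NP arrays, 5 had deviations with a correlation over 0.1, and of 8 in sP and sNP 3 had, so the numbers were not taken to pair the rats.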

Additional observations from a re-analysis of the deposited data

Results flagged for a closer look

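In 16 of 290 tests of single lines, an array lay far from the rest of its line by Dixon's test, which flags about 1 in 20 groups by chance. P 5 was highest in its line for Cox8b (12.68) and Cox6b2 (9.08), and P 1 for the complex I score (0.563) and Ndufa4 (13.78). HAD1 29 was lowest for Cox7c (10.99) and Ndufa12 (11.73). NP arrays stood apart for Ndufa12 (NP 8, 13.18), the dimmest probe set of Atp5if1 (NP 8, 5.68), Ndufaf1 (NP 10, 6.73) and Ndufaf8 (NP 3, 10.58). Single arrays also stood apart for Cox4i2 (HAD2 9, 5.67), Cox7a2l (AA 19, 12.67), Ndufaf1 (LAD1 33, 7.44), the dimmer probe set of Ndufaf7 (sP 2, 9.56), Ndufaf8 (sNP 8, 10.23) and Ndufv2 (sNP 2, 13.44).

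The 11 members whose difference varied among line pairs by limma's F test had ranges over the 5 pairs of 1.01 for Cox6b2, 0.61 for Ndufa2, 0.54 for Ndufa6, 0.53 for Ndufaf4, 0.53 for Uqcr10, 0.51 for Atp5f1e, 0.40 for Cox7c, 0.39 for Atp5mf, 0.39 for Ndufa4, 0.37 for Uqcr11 and 0.32 for Atp5mg.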

How the results depend on the processing

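No called difference changed its sign. Of the counts of called members, 48 were within 1.5 times the reported count and 16 were not. HAD1 gave 14 calls with all 10 groups in 1 fit and 21 at an unadjusted p under 0.05. HAD2 gave 5 with 1 fit, 5 with array weights and 17 unadjusted; Ndufaf4, Cox6b2 and Ndufaf7 were called in every setting that could test them, and Cox6b2 could not be tested in the brighter 50%. Unadjusted counts were 4 for P, 2 for AA and 1 for sP. Without the arrays on the other side 1 member was called for P (Uqcrfs1, 0.31) and 1 for sP (Ndufa12, 0.27). The mean over pairs gave 0 with 1 probe set per gene, with line pairs as replicates, with median-centred arrays, without LAD1 36 and without P 5; over all 9 alternatives, 4 of which kept the call of Ndufaf4, its limma adjusted p ran from 0.0112 to 0.999. Variation among pairs gave 26 calls with array weights and 8 to 13 in the other limma settings. With the median over genes in place of the mean, the complex IV difference in HAD2 was -0.0459 and the complex III difference in P 0.13; the other 118 score differences moved by less than 1 SD, although the same setting took HAD1 from -0.159 to -0.0570 in complex III and from -0.104 to -0.0543 in complex IV. The replicate block gave 0 calls in P and 0 in sP. The cause of these changes was not tested. Dim probe sets such as Cox6b2 and Cox8b lie below the median of all probe sets, and no detection call was used.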
